A study of Mus musculus with 19 samples.

Results

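The genes described here are 6 transcription factor genes of the circadian output: Dbp, Tef and Hlf of the PAR bZIP family, Nfil3, and the paired genes Bhlhe40 and Bhlhe41. They were chosen by symbol and are 6 of the 50559 genes listed in the count table. All 6 passed the filter on low counts and were among the 15572 genes tested. Ribosome-bound mRNA was measured in spinal cord cholinergic neurons of 10-wk-old wild-type male ChAT-Cre;RiboTag fx/+ mice kept in 12 h of light and 12 h of dark. Every animal, at every time point, carried both alleles: Cre recombinase driven from the choline acetyltransferase gene, and the RiboTag allele, by which cells with Cre make a ribosomal protein that carries a hemagglutinin tag. The tagged cells are therefore all cholinergic cells of the cord and not motor neurons alone. Spinal cords were taken at Zeitgeber Time (ZT, hours after lights on) 0, 4, 8, 12, 16 and 20, with 3 animals and 3 immunoprecipitate libraries per time point. A single library of pooled input, RNA of the whole cord homogenate before precipitation, completed the 19 libraries.

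The PAR bZIP factors DBP, TEF and HLF are basic leucine zipper proteins with a proline- and acid-rich region, and they activate genes through a DNA element called the D-box. NFIL3, also called E4BP4, is a bZIP repressor that binds the same element, so that in liver and other tissues the balance of PAR bZIP activators against NFIL3 sets the timing of D-box genes. BHLHE40 (DEC1) and BHLHE41 (DEC2) are basic helix-loop-helix repressors that bind the E-box, the element through which CLOCK and BMAL1 activate Dbp, Per and Nr1d genes. In many tissues Dbp is among the genes with the widest daily swing, and Nfil3 is highest at the opposite part of the day.

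The promoters of these genes were read from RefSeq on GRCm38.p6 (the build mm10) to show where the E-box, spelled CACGTG, stands before genes of both families. Of the 6 genes, 5 had a promoter entry of 300 bases (250 before and 50 after the start), Tef having 2, whereas Bhlhe40 had none. A CACGTG was present in both entries of Tef and in that of Bhlhe41, and in none of the entries of Dbp, Hlf and Nfil3. Over all 32851 promoter entries of the same length 7.15% held it. The letters are the same on both strands. The D-box, searched as TTATGTAA and TTACGTAA on both strands, was in none of the members' entries and in 1.06% of all entries. The runs below are 5′ to 3′ on the strand of the gene, start 250 bases before the annotated start, stop at the start or before the first annotated exon base, and have CACGTG in capitals.
Tef, the entry starting at 81811414, chr15:81811164-81811413, plus strand: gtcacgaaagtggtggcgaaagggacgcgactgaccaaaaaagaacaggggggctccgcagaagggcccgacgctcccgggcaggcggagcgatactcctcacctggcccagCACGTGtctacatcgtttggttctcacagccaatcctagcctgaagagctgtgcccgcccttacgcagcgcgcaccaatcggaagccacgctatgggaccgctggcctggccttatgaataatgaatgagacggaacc
Bhlhe41, chr6:145865559-145865670, minus strand: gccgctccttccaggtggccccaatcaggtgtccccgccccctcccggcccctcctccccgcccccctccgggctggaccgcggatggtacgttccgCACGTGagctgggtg
Dbp, chr7:45704997-45705087, plus strand: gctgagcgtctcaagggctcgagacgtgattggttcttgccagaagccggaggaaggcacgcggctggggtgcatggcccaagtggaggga
The capitals lie 138 to 133 bases before the start in the Tef run and 153 to 148 bases before it in the Bhlhe41 run. In the other Tef entry, which starts at 81802673 inside annotated exons and is not shown, the match lies 127 to 122 bases before the start. The Dbp run, of 91 bases, is shown for comparison and holds no match in these letters. Only the 300 bases of each entry were searched, so an E-box elsewhere in or near a gene was not looked for.

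Dbp (ENSMUSG00000059824) lies on chromosome 7 at 45705088 to 45710203, Tef (ENSMUSG00000022389) on chromosome 15 at 81802421 to 81826863, both on the plus strand. Hlf (ENSMUSG00000003949) lies on chromosome 11 at 90336536 to 90390895 and Nfil3 (ENSMUSG00000056749) on chromosome 13 at 52967209 to 52981073, both on the minus strand. Bhlhe40 (ENSMUSG00000030103) and Bhlhe41 (ENSMUSG00000030256) lie on chromosome 6, at 108660629 to 108666925 on the plus and 145858243 to 145865558 on the minus strand. Exons of 4 of these genes overlap a gene on the opposite strand. The longest overlap with a gene of the table is that of Dbp with Sphk2, 539 exonic bases or 18.0% of the exonic bases of Dbp. The library kit keeps strand, but the strand setting used in counting is not given in the sources used here, so reads of Dbp and Sphk2 in the overlap may not have been told apart.

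The immunoprecipitates held 6302150 to 22406844 counts (median, 15014112) and the input 15239792. Values are given as CPM, counts scaled to library size, after adjustment by the trimmed mean of M-values (TMM). Of 7 cholinergic neuron markers, 6 were enriched at least 2-fold over the input in all 18 immunoprecipitates, and the seventh, Chat, lay above it in 17. All 7 oligodendrocyte, 6 astrocyte, 6 microglia, 4 endothelial and 4 erythrocyte markers were depleted, as were all 3 excitatory and 3 of the 4 inhibitory neuron markers. None of these lists was absent, although P2ry12 of microglia and Slc17a7 of excitatory neurons were at 0 in some libraries. The summed level of the oligodendrocyte markers was 1540 to 2920 CPM in the immunoprecipitates against 21300 CPM in the input. The first principal component of log2 CPM held 52.8% of the variance. The 3 samples of a time point are biological replicates, each from 1 cord, so the p-values measure the spread between animals and their preparations together.

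Rhythm was then tested in each gene with a cosinor, in which a curve of 24 h is fitted by edgeR and its 2 terms are tested jointly with the quasi-likelihood F-test. The other tests were one of any difference among the 6 time points and JTK_Cycle, a rank test against cosine curves of 20, 24 and 28 h. The cosinor called Dbp and Tef, 2 of the 6 genes, at a false discovery rate (FDR) under 0.05, and it called 6.24% of all genes. The test among time points called Dbp and Bhlhe41, 2 of the 6, against 6.74% of all genes. JTK_Cycle called none of the 6 after adjustment over all genes (0.0385% called, 6 genes). Within the gene alone it called Dbp and Tef, against 15.8% of all genes. At an unadjusted p under 0.05 the edgeR cosinor passed 5 of the 6 genes, all but Bhlhe40, against 26.7% of all genes. The median cosinor amplitude, which is the log2 distance from mean to peak, was 0.23 over the 6 genes and 0.18 over all genes tested.

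**Figure D1:**
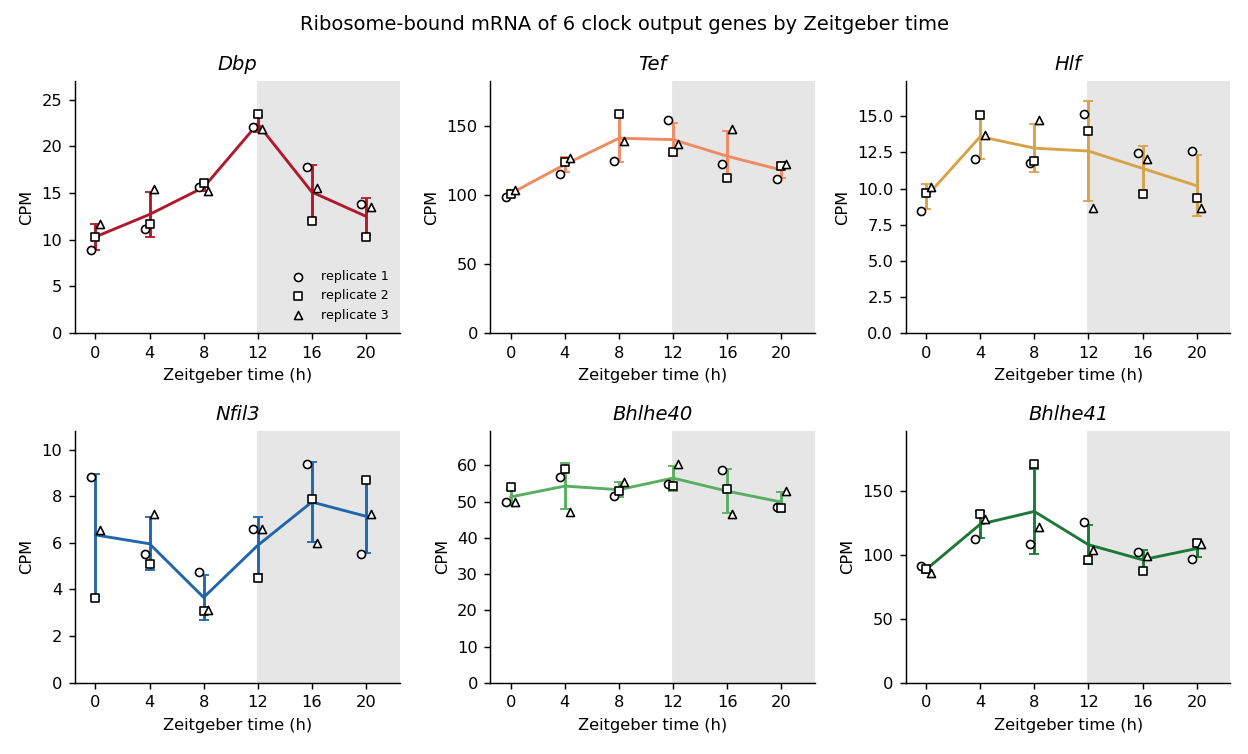
CPM of the 6 genes (y axis, from 0) against Zeitgeber time in hours (x axis), with 1 symbol per library and lines through the means with SD (n = 3); grey marks the dark phase. Dbp stands highest in the 3 ZT12 libraries (21.8 to 23.5 CPM), Tef is lowest at ZT0, Nfil3 is lowest at ZT8 and Bhlhe40 lies between 46.5 and 60.5 CPM throughout.

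Dbp, an activator of D-box genes, rose from ZT0 to ZT12 and had the lowest p of the 6 in each of the 3 tests of rhythm. Its values in replicates 1, 2 and 3 were 8.90, 10.3 and 11.7 CPM in the ZT0 libraries, followed by 11.1, 11.6 and 15.4 (ZT4) and by 15.7, 16.0 and 15.2 (ZT8). The ZT12 libraries held 22.0, 23.5 and 21.8 CPM, those of ZT16 17.8, 12.0 and 15.5, and those of ZT20 13.8, 10.3 and 13.5. The 3 ZT12 libraries were therefore above all 15 others, which was so for 37 of the 15572 genes (0.238%). That share covers ZT12 alone, the highest time point of Dbp, and the share over any time point was not computed. The mean rose 2.18-fold from 10.3 ± 1.39 CPM at ZT0 to 22.4 ± 0.884 CPM at ZT12 (SD, n = 3 each). On the log2 scale this difference was 1.12 with a standard error (SE) of 0.17 (edgeR FDR, 0.0162). In that pair of time points 5 genes were called (0.0321%), 4 of them higher at ZT12 (0.0257%), and Dbp was one of these. Its cosinor amplitude was 0.48 (SE, 0.07) with a peak at ZT11.9 (SE, 0.60 h) and an edgeR FDR of 0.0274, the third-lowest p (6.77e-06) of all genes tested. The edgeR test among time points gave an FDR of 0.0171, and JTK_Cycle a p of 0.000143 within the gene (FDR, 0.0814) with a best period of 24 h and a peak at ZT12.

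The haemoglobin genes were also highest at ZT12. The summed level of the 4 erythrocyte markers was 675 ± 76.5 CPM there (SD, n = 3), against means of 267 to 361 CPM at the other time points. Hba-a1 and Hba-a2, named here after their values were seen, were among the 5 genes called between ZT0 and ZT12 (log2 differences, 1.35 and 1.29), and Fam205a2 was the 1 called lower (-1.47). Across the 18 libraries the correlation of log2 CPM of Dbp with the mean of these markers was 0.69, and within time points it was 0.16, a description over libraries that share time of day. With the erythrocyte mean as a covariate, an alternative added after these values were seen, the Dbp difference between ZT12 and ZT0 was 1.02 (edgeR FDR, 0.532) and the amplitude 0.38 (edgeR FDR, 0.159). The same fit called 0 of all genes by the cosinor and 0 in that pair, and by the test among time points it called 2359 genes, with an edgeR FDR of 0.0503 for Dbp. The part of erythrocyte RNA in the Dbp result was otherwise not tested. Sphk2, whose exons overlap those of Dbp, had means between 91.4 and 101 CPM and was not called by the cosinor (amplitude, 0.05; edgeR FDR, 0.714).

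The Dbp calls also moved with single libraries. Without ZT12 replicate 1, ZT16 replicate 1, ZT0 replicate 2 or ZT4 replicate 2 the edgeR FDR of the cosinor was 0.0563, 0.051, 0.058 and 0.0632, while the amplitude stayed between 0.44 and 0.51 and the peak between ZT11.7 and ZT12.2 over all 18 single removals. The ZT12 and ZT0 difference stayed between 1.02 and 1.23 over these removals. Its edgeR FDR was 0.218, 0.0781 and 0.0818 without ZT0 replicates 1, 2 and 3, and 0.12 and 0.0858 without ZT12 replicates 1 and 2. The test among time points lost Dbp without ZT8 replicate 3 (edgeR FDR, 0.0584), a removal in which it called 5 genes in all. JTK_Cycle called it without ZT16 replicate 3 (FDR, 0.0303), a removal that raised its calls over all genes from 6 to 752 of 16088.

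Tef, the PAR bZIP gene with the highest level, varied less. The libraries of ZT0 held 98.4, 101 and 104 CPM in replicates 1 to 3, those of ZT4 115, 124 and 126, and those of ZT8 124, 159 and 139. From lights off on, at ZT12, the libraries held 154, 131 and 137 CPM, followed by 123, 112 and 148 (ZT16) and by 112, 121 and 122 (ZT20). The 3 ZT0 libraries lay below all 15 others, as in 17 of the 15572 genes (0.109%). The share over any time point was not computed, and this one covers ZT0 alone, the lowest time point of Tef. Its cosinor amplitude was 0.22 (SE, 0.05) with a peak at ZT11.1 (SE, 0.80 h) and an edgeR FDR of 0.0377. The test among time points gave an edgeR FDR of 0.0509. JTK_Cycle gave an exact p of 0.00146 within the gene (FDR, 0.0944), with a best period of 20 h and a peak at ZT10. From ZT0 to ZT8 Tef rose by 0.48 on the log2 scale (SE, 0.11; edgeR FDR, 0.00897), a pair in which 18.0% of all genes were called and 8.95% called higher.

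The cosinor call of Tef was lost in 10 of the 18 single removals. These were ZT12 replicate 1, ZT16 replicates 1 and 2, ZT20 replicate 1, ZT0 replicates 2 and 3, ZT4 replicates 2 and 3, and ZT8 replicates 2 and 3. Over them the edgeR FDR lay between 0.0526 and 0.121. The unadjusted p of the edgeR cosinor lay between 0.00025 and 0.0021, against 0.00044 with all libraries. In these 10 removals the cosinor called 2 to 213 genes in all, against 972 with all libraries. The amplitude of Tef lay between 0.20 and 0.23 over all 18 removals. The rise from ZT0 to ZT8 missed the threshold without ZT0 replicate 1 (0.46; edgeR FDR, 0.0507) or ZT8 replicate 2 (0.37; edgeR FDR, 0.0773). Without ZT16 replicate 3 JTK_Cycle called Tef (FDR, 0.0324) as 1 of the 752 genes it then called. The edgeR test among time points called Tef without ZT8 replicate 1 (FDR, 0.0173) or ZT16 replicate 3 (FDR, 0.0188), removals with 2454 and 2058 genes called in all, against 1050 with all libraries. Within time points the correlation of Tef with the erythrocyte mean was 0.58, and with that mean as a covariate the amplitude was 0.18 (edgeR FDR, 0.185).

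Hlf, the third PAR bZIP gene, was not called by any of the tests. In replicates 1 to 3 it held 8.47, 9.70 and 10.1 CPM (ZT0), then 12.1, 15.1 and 13.7 (ZT4) and 11.8, 11.9 and 14.7 (ZT8). From ZT12 on it held 15.2, 14.0 and 8.65 CPM (ZT12), then 12.5, 9.64 and 12.0 (ZT16) and 12.6, 9.36 and 8.64 (ZT20). The 3 ZT12 libraries spanned nearly the whole range of the gene. Its amplitude of 0.23 (SE, 0.08; edgeR FDR, 0.161) was close to that of Tef, with a fitted peak at ZT8.62 (SE, 1.4 h). The spread within time points was 17.4% of the mean in Hlf and 9.52% in Tef, on 80 to 343 counts per library in Hlf and 710 to 2940 in Tef.

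Nfil3, the repressor of D-box genes, had its lowest mean at ZT8, as did 29.1% of all genes tested, and its highest at ZT16. Replicates 1 to 3 of ZT0 held 8.84, 3.62 and 6.56 CPM, those of ZT4 held 5.52, 5.11 and 7.25, and those of ZT8 held 4.77, 3.07 and 3.13. Later the ZT12 replicates held 6.61, 4.48 and 6.59 CPM, the ZT16 replicates 9.40, 7.86 and 5.98, and the ZT20 replicates 5.50, 8.68 and 7.22. The ZT16 libraries were all above those of ZT8, as in 13.7% of all genes, and the ZT0 libraries spanned most of the range of the gene. From ZT8 to ZT16 Nfil3 rose by 1.09 on the log2 scale (SE, 0.30; edgeR FDR, 0.0198), a pair with 16.9% of all genes called and 9.11% called higher. Its cosinor amplitude was 0.41 (SE, 0.13), with a fitted peak at ZT19.2 (SE, 1.2 h) and an edgeR FDR of 0.0973. The rise was not called without ZT16 replicate 1 (0.94; edgeR FDR, 0.089), ZT16 replicate 2 (1.07; 0.0819), ZT8 replicate 2 (0.98; 0.106) or ZT8 replicate 3 (0.99; 0.0809). Nfil3 rested on the lowest counts of the 6, from 35 to 167 per library. Within time points its correlation with the erythrocyte mean was -0.61, and with that mean as a covariate the rise was 0.85 (edgeR FDR, 0.0589).

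The ratio of activator to repressor mRNA was taken within each library as a description. The log2 CPM of Dbp minus that of Nfil3 was 2.08 ± 0.34 in the ZT8 and 1.93 ± 0.37 in the ZT12 libraries (SD, n = 3 each), the highest means. It was 0.77 ± 0.74 in those of ZT0, 1.08 ± 0.09 in those of ZT4, 0.95 ± 0.38 in those of ZT16 and 0.81 ± 0.54 in those of ZT20. How often other pairs of genes differ over time by as much was not computed. For Tef the same difference was 5.23 ± 0.51 at ZT8 and between 4.03 and 4.56 in the means of the other time points. These ratios are not corrected for transcript length, so only their change over time, and not their size, compares the genes.

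**Figure D2:**
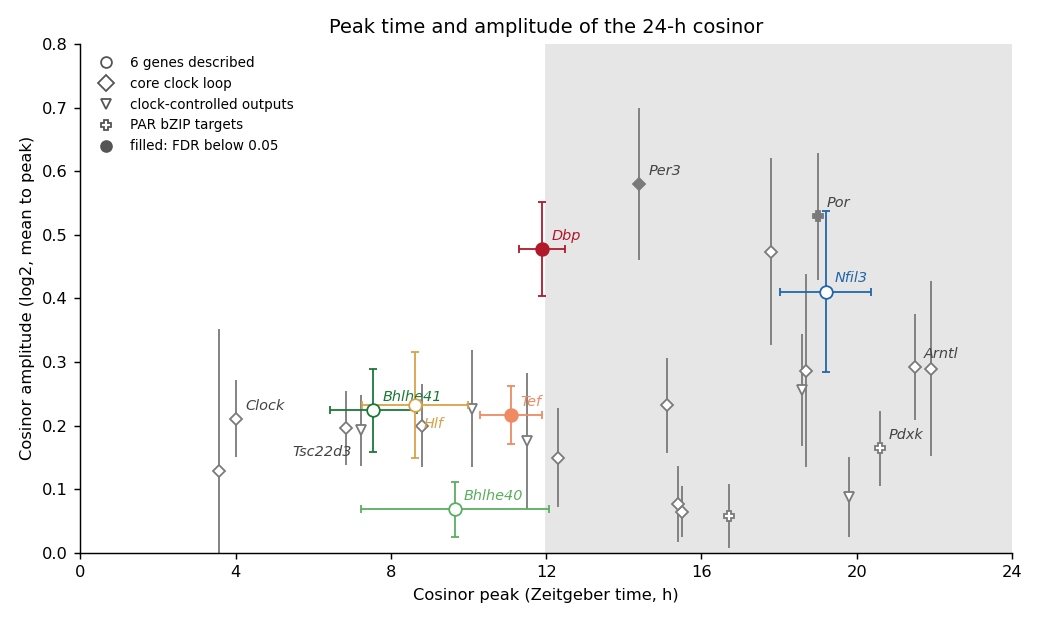
Amplitude of the 24-h cosinor (y axis, log2 from mean to peak, bars are SE) against its peak (x axis, Zeitgeber time in hours, bars are SE for the 6 genes) for the 6 genes and the genes of 3 lists; filled symbols passed an FDR of 0.05 and grey marks the dark phase. Dbp (amplitude, 0.48; ZT11.9) and Tef (0.22; ZT11.1) are filled and lie near the change from light to dark, while Nfil3 (0.41; ZT19.2) is open and lies in the dark phase.

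Bhlhe41, a repressor at the E-box, was highest at ZT4 and ZT8. Its ZT0 replicates 1 to 3 held 91.2, 88.6 and 86.0 CPM, its ZT4 replicates 113, 132 and 128, and its ZT8 replicates 108, 171 and 122. Its ZT12 replicates held 125, 96.1 and 104 CPM, its ZT16 replicates 102, 87.1 and 99.3, and its ZT20 replicates 97.2, 110 and 109. All ZT4 and ZT8 libraries were above all ZT0 and ZT16 libraries, as in 3.36% of all genes, time points picked after the values of the gene were seen. For ZT8 above ZT16 alone this share was 13.5%. The ZT8 libraries had the widest spread, with replicate 2 highest. The edgeR test among time points called the gene (FDR, 0.0496), and the cosinor did not (amplitude, 0.22; SE, 0.07; fitted peak at ZT7.55; edgeR FDR, 0.0685). It rose by 0.59 from ZT0 to ZT8 (SE, 0.14; edgeR FDR, 0.00912) and fell by 0.48 from ZT8 to ZT16 (SE, 0.14; edgeR FDR, 0.0243), where 7.80% of all genes were called lower. Without ZT8 replicate 2 these were 0.36 (edgeR FDR, 0.0878) and -0.25 (edgeR FDR, 0.233). The fall was also not called without ZT16 replicate 1 (-0.51; edgeR FDR, 0.0634) or ZT16 replicate 2 (-0.41; edgeR FDR, 0.131), nor with the oligodendrocyte (-0.42; edgeR FDR, 0.057) or the erythrocyte mean (-0.41; edgeR FDR, 0.0655) as a covariate. The test among time points held in 4 of the 18 single removals, those of ZT4, ZT8 and ZT12 replicate 1 and ZT16 replicate 3, and gave an edgeR FDR of 0.0588 to 0.125 in the other 14. The cosinor called the gene without ZT20 replicate 3 (edgeR FDR, 0.0307), when it called 2668 genes in all, against 972 with all libraries.

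Bhlhe41 was also the gene of the 6 that followed the main axis of variation among the libraries most closely. The size of its correlation with the first principal component over the 18 libraries was 0.89, against 0.67 for Tef and Nfil3, 0.55 for Hlf, 0.24 for Dbp and 0.08 for Bhlhe40. These are descriptions over libraries that share time of day. With that component as a covariate the amplitude of Bhlhe41 was 0.02, that of Nfil3 0.20, that of Tef 0.19 (edgeR FDR, 0.0111) and that of Dbp 0.47 (edgeR FDR, 0.00798). Of all 15572 genes the cosinor then called 11, against 972 without the covariate. The fitted peak of Tef then lay at ZT13.7 and not at ZT11.1. The differences between ZT8 and ZT0 were 0.09 for Tef, 0.12 for Bhlhe41 and 0.44 for Dbp in that fit (edgeR FDR, 1.0 each). From ZT8 to ZT16 the difference was 0.49 for Nfil3 (edgeR FDR, 0.94) and -0.02 for Bhlhe41 (edgeR FDR, 0.997). Of the calls in pairs, that of Dbp between ZT12 and ZT0 held (1.06; edgeR FDR, 0.00926). In that pair 10 of all genes were called with the covariate and 5 without it.

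Bhlhe40, the paralog of Bhlhe41, showed no time point that stood apart. Its libraries lay between 46.5 CPM at ZT16 and 60.5 CPM at ZT12, with a median of 53.2 CPM, and the means of the time points lay between 49.9 ± 2.66 CPM at ZT20 and 56.5 ± 3.46 CPM at ZT12 (SD, n = 3 each). The cosinor amplitude was 0.07 (SE, 0.04; edgeR FDR, 0.545), and the edgeR FDR among time points was 0.843. Of the variance of its log2 CPM, 26.6% lay between time points, against 63.5% in Bhlhe41 and 81.8% in Dbp. Such a share is above 0 even without an effect of time, and its values over all genes were not computed. The spread of Bhlhe40 within time points, 7.92% of the mean, was the lowest of the 6.

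In at least 1 of the 15 pairs of time points 4 of the 6 genes were called, against 21.4% of all genes, and Hlf and Bhlhe40 were called in none. The pair of ZT8 and ZT0 called Dbp, Tef and Bhlhe41 (18.0% of all genes) and that of ZT16 and ZT8 called Nfil3 and Bhlhe41 (16.9%), whereas the pair of ZT12 and ZT0 called Dbp alone of the 6. Dbp rose by 0.60 from ZT0 to ZT8 (SE, 0.17; edgeR FDR, 0.0231), a call lost without ZT0 replicate 1 (0.50; edgeR FDR, 0.123), ZT0 replicate 2 (0.59; 0.0515), ZT8 replicate 2 (0.57; 0.0955) or ZT8 replicate 3 (0.61; 0.0604), and with the erythrocyte mean as a covariate (0.57; 0.0682). Pairs that share a time point share its libraries. The lowest mean was at ZT0 in Dbp, Tef, Hlf and Bhlhe41, as in 17.0% of all genes tested. The ZT8 libraries were all above those of ZT0 in these same 4 genes (16.9% of all genes), and the ZT12 libraries were all above those of ZT0 in Dbp, Tef, Bhlhe40 and Bhlhe41 (7.45%). In Bhlhe40 this was by the gap between 53.9 and 54.3 CPM.

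**Figure D3:**
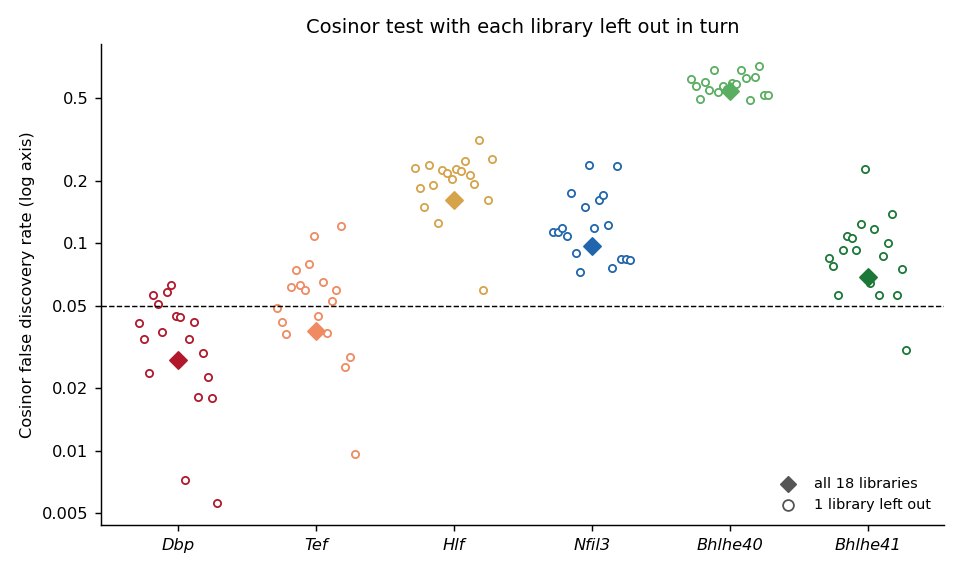
FDR of the edgeR 24-h cosinor (y axis, log scale, dashed line at 0.05) for each of the 6 genes with all 18 libraries (diamonds) and with each library left out in turn (circles). The circles of Dbp lie between 0.00559 and 0.0632 and those of Tef between 0.00959 and 0.121, on both sides of the line, and all circles of Hlf, Nfil3 and Bhlhe40 lie above it.

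The immunoprecipitates were next set against the pooled input, with no test since there was 1 input library, and all 19 libraries were scaled together. Here a gene was called depleted or enriched where the mean differed by 2-fold or more and each of the 18 immunoprecipitates was on the same side of the input. Of the 6 genes, Dbp and Hlf were depleted (23.0% of 17902 genes compared) and none was enriched (13.9%). Dbp was at 15.0 ± 4.29 CPM (SD, n = 18; range, 9.03 to 23.6) whereas the input held 46.7 CPM (exact 95% interval of its count, 43.7 to 49.9), for a log2 ratio of -1.64. Hlf was at 11.8 ± 2.30 CPM (range, 8.59 to 15.4) against 50.2 CPM (47.1 to 53.5), a ratio of -2.09. Even the ZT12 libraries of Dbp were thus below the input. The intervals cover counting error only. Which animals and time points were pooled in the input is not given in the sources used here.

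Tef lay below the input in 18 of 18 libraries, as did 32.2% of the genes compared, at 126 ± 17.3 CPM (SD, n = 18) against 162 CPM (156 to 167), a log2 ratio of -0.35. Bhlhe41 lay above it in 18 of 18, as did 25.8%, at 111 ± 21.0 CPM against 68.3 CPM (64.6 to 72.1), a ratio of 0.70, which is under 2-fold. Nfil3 (6.20 ± 1.93 against 5.98 CPM; 4.92 to 7.18) and Bhlhe40 (53.7 ± 4.16 against 56.5 CPM; 53.1 to 60.0) were on both sides of the input. The median log2 ratio of all genes compared was -0.06. Scaling by library totals moved the log2 ratios of the 6 genes by -0.34 to -0.33 and kept both calls, and Nfil3, at a log2 ratio of 0.05, was below 0 under each of the 3 other scalings (-0.28 to -0.01). Input and immunoprecipitates are bulk RNA, in which fewer cells of a type and less RNA per cell cannot be told apart.

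Because the glial markers were depleted but present, the input level of each gene was multiplied by the median ratio of a marker list. The product stands for RNA carried over from that cell type only if the gene's whole input level came from it, which was not tested. For oligodendrocyte markers the median ratio was 9.15%, with single markers from 4.57% (Cldn11) to 15.6% (Mobp). At the median the product was 4.27 CPM for Dbp (28.6% of its mean in the immunoprecipitates), 4.60 CPM for Hlf (38.9%), 14.8 CPM for Tef (11.7%) and 6.25 CPM for Bhlhe41 (5.64%). With astrocyte markers (4.95%) the shares were 15.5% for Dbp and 21.1% for Hlf. The summed oligodendrocyte level had means between 1720 CPM at ZT4 and 2260 CPM at ZT16, and was 1940 CPM at ZT12. The summed astrocyte level was 184 CPM at ZT12 and 174 CPM at ZT0. With the oligodendrocyte mean as a covariate the edgeR FDR of the cosinor was 0.0558 for both Dbp (amplitude, 0.47) and Tef (amplitude, 0.21), and the cosinor then called 4 genes in all. How much of each gene's signal came from other cells was otherwise not tested.

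**Figure D4:**
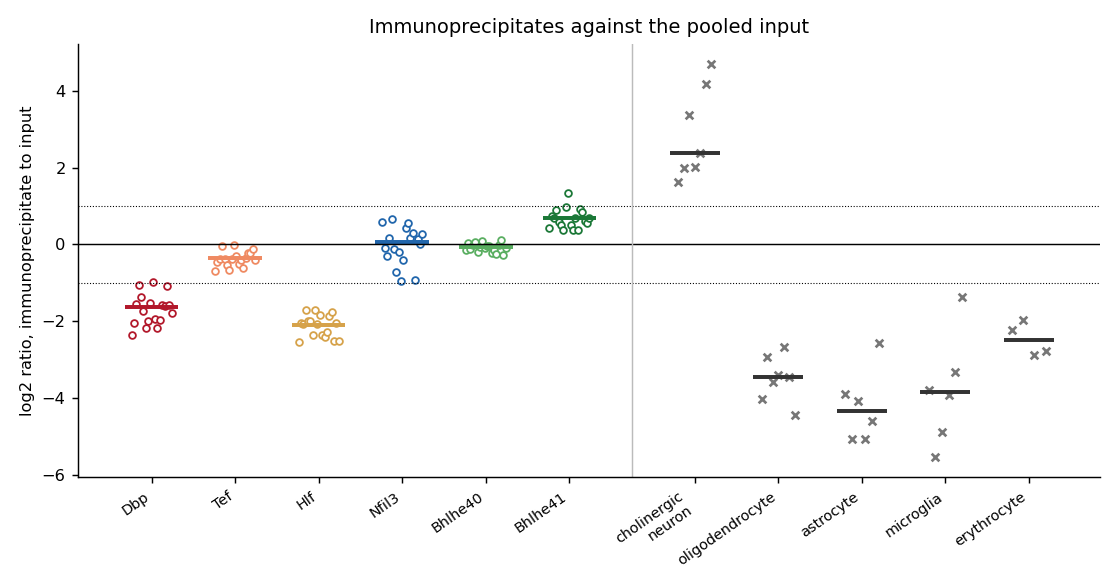
Log2 ratio to the pooled input (y axis) of each immunoprecipitate for the 6 genes (circles; bars are the ratio of the mean) and of each gene of 5 marker lists (crosses, mean of 18 libraries; bars are list medians), with dotted lines at 2-fold. Dbp (-1.64) and Hlf (-2.09) lie below the input but above the median of the oligodendrocyte list (-3.45), and Bhlhe41 (0.70) lies above the input but below the median of the cholinergic list (2.39).

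Levels of different genes can be compared only per transcript length. In TPM, counts divided by transcript length and scaled to a common total, on the longest annotated transcript, Tef was highest of the 6 at 71.8 ± 7.83 TPM in the immunoprecipitates (SD, n = 18), followed by Bhlhe41 at 45.1 ± 6.90, Bhlhe40 at 43.3 ± 3.94, Dbp at 20.4 ± 5.59, Nfil3 at 7.73 ± 2.55 and Hlf at 5.23 ± 0.904 TPM. Each of Tef over Bhlhe41, Bhlhe40 over Dbp and Dbp over Nfil3 held in 18 of 18 libraries. Bhlhe41 was above Bhlhe40 in 11 of 18 libraries on the longest transcript and in 18 of 18 with the mean length over annotated transcripts (ratio of means, 1.34), so their order depended on the length used. Nfil3 was above Hlf in 14 of 18, and with the mean length this order turned, to 4.51 TPM for Nfil3 and 8.24 TPM for Hlf. The ratio of the highest to the lowest mean was 13.7 with the longest and 28.9 with the mean length.

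**Figure D5:**
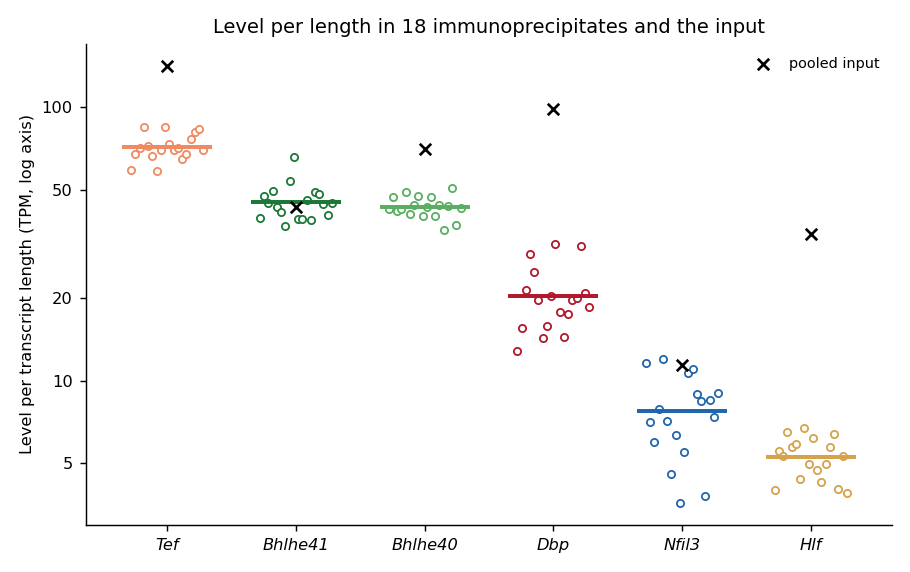
Level per transcript length in TPM (y axis, log scale) of the 6 genes in the 18 immunoprecipitates (circles, bars are means) and in the pooled input (crosses). Tef (71.8 TPM) is highest and Hlf (5.23 TPM) lowest in the immunoprecipitates, and the clouds of Bhlhe41 and Bhlhe40 overlap.

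The genes most like each of the 6 were found by Pearson correlation of log2 CPM over the 18 immunoprecipitates, as a description of libraries that share time of day. For Dbp they were Ewsr1 (0.84), 2900024J01Rik (0.80) and Aar2 (0.80), and for Tef Cirbp (0.90), Zfp740 (0.86) and Chpf2 (0.86). For Hlf they were Gramd4 (0.83), Tmem114 (0.81) and Zcchc10 (0.80), and for Nfil3 Gpr17 (0.85), Gga2 (0.83) and Tnfrsf1a (0.83). Bhlhe40 was most like Fam183b (0.79), Ptcd3 (0.77) and Lrrc75b (0.76), and Bhlhe41 most like Gm2137 (0.93), Atmin (0.93) and Ube2g2 (0.93). Among the 6 genes the highest correlations were those of Dbp with Tef (0.73) and of Tef with Bhlhe41 (0.70). Those of Nfil3 with the other 5 were all below 0, from -0.16 to -0.40. The share of other gene pairs with correlations as far from 0 was not computed.

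Other genes of the pathway were read from lists. Of 4 genes known as PAR bZIP targets in liver, 3 passed the filter on low counts. The cosinor called 1 of the 3, against 6.24% of all genes, and this was Por, the electron donor of cytochrome P450 enzymes. Por was highest in the ZT16 (38.2 ± 8.14 CPM) and ZT0 libraries (35.7 ± 4.69), and lowest in those of ZT8 (17.0 ± 1.02) and ZT4 (18.6 ± 2.25), with 27.6 ± 7.02 CPM in those of ZT20 (SD, n = 3 each). Its amplitude was 0.53 (SE, 0.10) with a peak at ZT19.0 (edgeR FDR, 0.0373; among time points, 0.0145), and it was 1 of the 10 genes called between ZT4 and ZT16 (0.0642%; log2 difference, 1.02; edgeR FDR, 0.0341). Pdxk, pyridoxal kinase, was not called (amplitude, 0.16; fitted peak at ZT20.6; edgeR FDR, 0.155), and the third target was not called either. Library removals and covariates were followed for the 6 genes alone, so whether the calls of Por hold under them was not tested.

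Of the 13 genes of the core clock loop, all tested, the cosinor called 1, against 6.24% of all genes. This was Per3 (amplitude, 0.58; SE, 0.12; peak at ZT14.4; edgeR FDR, 0.0373). The test among time points called none of the 13, against 6.74% of all genes. Each of the 2 edgeR tests passed 7 of the 13 at an unadjusted p under 0.05, against 26.7% (cosinor) and 23.7% (time points) of all genes. JTK_Cycle within the gene passed 3 of the 13, Arntl, Clock and Per3, against 15.8% of all genes. Arntl, the gene of BMAL1, had its fitted peak at ZT21.5 (amplitude, 0.29; edgeR FDR, 0.0683) and Clock, the gene of its partner, at ZT4.02 (0.21; edgeR FDR, 0.0709). Of 5 common clock-controlled outputs (Ciart, Usp2, Tsc22d3, Tspan4 and Wee1), the cosinor called none. At an unadjusted p under 0.05 the edgeR cosinor passed 2 of the 5, against 26.7% of all genes. The test among time points called 1 of the 5, against 6.74% of all genes. This was Tsc22d3, a glucocorticoid-induced gene with a fitted peak at ZT7.22 (amplitude, 0.19; edgeR FDR among time points, 0.0409). The median amplitudes were 0.21 in the core loop, 0.19 in the outputs and 0.16 in the targets, against 0.18 over all genes. The calls of Per3 and Tsc22d3, like those of Por, were not followed under library removals or covariates.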

How the data were processed

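The deposited table holds expected counts of each gene from RSEM, without normalization by the authors, who aligned 150-bp paired-end reads of stranded mRNA libraries (100 ng RNA) to mm10 with STAR 2.7.5, per the labels and the methods. All value columns were mapped to samples by name. Counts were rounded, genes kept with filterByExpr and libraries scaled by TMM (edgeR 4.0.16, R 4.3.3), with a prior count of 2 in log2 CPM. The cosinor, the test among time points and the 15 pairs used edgeR's quasi-likelihood F-test with Benjamini-Hochberg adjustment over all 15572 genes. JTK_Cycle used 18 templates at 2-h steps, Bonferroni-adjusted within the gene, with an exact null in which time points of equal cosine were merged. Gene positions and transcript lengths came from GENCODE M21, matched by symbol, which may differ from the annotation of the counts. Input intervals were exact Poisson intervals. The depth of 6302150 to 22406844 counts per immunoprecipitate limits the precision of low genes. The cosinor and JTK_Cycle code was tested on simulated data, and the other steps were not. The named genes were the 6 members, list genes that the cosinor, the test among time points or JTK_Cycle within the gene called, Pdxk, and the 3 genes most correlated with each member. Members and lists were chosen with earlier results of these data known. Alternatives covered scaling, filter, library removal, covariates, replicate block, periods and DESeq2 1.42.0. 1 gene called between ZT0 and ZT12 is not reported here.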

Additional observations from a re-analysis of the deposited data

How the results depend on the processing

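No called difference or ratio changed its direction under any alternative run, and of 876 values recomputed for single genes 766 kept their side of the threshold or stayed within the spread of the libraries, 91 lost a call, 15 gained one and 4 ratios to the input moved by more than that spread. Numbers of the 6 genes called were less stable. The cosinor called 2 with all libraries, 0 to 3 with 1 library and 0 to 2 with 1 replicate number left out, 0 with the oligodendrocyte or the erythrocyte mean as a covariate, and 4 with DESeq2 (Bhlhe41, Dbp, Nfil3 and Tef). The test among time points called 2, against 0 to 3 in the removals, and 1 under library totals, upper-quartile scaling, either covariate, the first principal component as a covariate or the replicate block. Over all genes it called 1050, 1010 under library totals, 1008 under upper-quartile scaling and 1004 with the block. With covariates it called 1088 (oligodendrocyte mean), 2359 (erythrocyte mean) and 18 (first principal component). It called 5 to 2454 with 1 library and 0 to 816 with 1 replicate number left out. Pairs of time points called 4 of the 6 (21.4% of all genes in at least 1 pair), against 0 to 4 in the removals and 1 with the first principal component as a covariate. JTK_Cycle called 0, against 0 to 2 in the removals, 1 with the first principal component taken out, 2 within the gene alone and 2 with the replicate block. Over all genes JTK_Cycle called 6, 356 with that block and 752 without ZT16 replicate 3. It called 1 gene in all with the first principal component taken out, and 2466 within the gene alone. The 45 correlations of same-numbered deviations ran from -0.519 to 0.585 (median, 0.07), 18 of them over 0.1. Libraries of different replicate numbers were not compared in this way, so whether the numbers pair the libraries was not tested. The ratio of the highest to the lowest level per length moved from 13.7 to 28.9 with the mean transcript length. The cause of these changes was not tested. The number of cosinor calls depended on single libraries: over all genes 972 were called, and 2 to 2668 with 1 library left out. Unfiltered, 2349 of 25601 genes were called, and 2312 by DESeq2. Between ZT0 and ZT12 5 genes were called, 187 unfiltered and 28 by DESeq2. Nfil3 had the lowest counts of the 6, with 35 to 167 per library, and the part of depth in its spread was not tested.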
